A study of Homo sapiens with 6 samples.

Results

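The genes that encode the proteins of the cytosolic ribosome were examined in 6 RNA libraries from cultured cells of atypical teratoid rhabdoid tumors (AT/RT), malignant tumors of the nervous system in young children. A gene was taken as a member if it lies on chromosomes 1 to 22 and its symbol is RPL or RPS with a number and an optional A or L, or is RPLP0, RPLP1, RPLP2 or RPSA. The rule found 78 genes of 36532 genes in the files, under 77 symbols, because RPL41 is listed on chromosome 12 and again on chromosome 7. The rule itself uses no measured value, but it was chosen with earlier results of these data known. RPL3L, RPL10L, RPL39L and RPS27L are paralogs of other members, and without these 4 and the chromosome 7 listing of RPL41 there are 73 genes, 43 of the large subunit and 30 of the small subunit. Genes on chromosome X, such as RPS4X, and fusion genes such as FAU fall outside the rule.

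A ribosome holds a copy of nearly every one of these proteins, so growing cells need their mRNAs in similar amounts, and they are among the most abundant transcripts of most cells. Their mRNAs characteristically begin with a C and an unbroken run of pyrimidines, the terminal oligopyrimidine (TOP) motif, through which the mTOR pathway and the RNA-binding protein LARP1 control their translation and stability. Mutations in several of them, including RPS19, RPL5 and RPL11, cause Diamond-Blackfan anemia, and free RPL5 and RPL11 bind MDM2 when ribosome assembly is disturbed.

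The cell lines are established lines grown as ATCC recommends, in DMEM:F12 with EGF, basic FGF and B-27, and no agent was added to any of them. CHLA 02 and CHLA 05 were sequenced once, and CHLA 04 and CHLA 06 as 2 technical replicates each, from total RNA with a stranded kit and paired reads of 125 bases. Each line is 1 biological sample, so no test between lines was possible and no p-value is given. Values are TPM, a measure of transcript abundance that corrects for transcript length and for the total of the library, summed over the transcripts of a gene. Where 6 values are given without names, the first is that of CHLA 02, the next are those of the CHLA 06 replicates, then come the CHLA 04 replicates, and the last is that of CHLA 05. Recovered reads per library numbered 10265899 to 20520229, fewest in CHLA 04 replicate 1. The paper describes AT/RT as often marked by deletion or mutation of SMARCB1, and reports that all of these lines lack SMARCB1 expression. Transcripts of SMARCB1 were nevertheless counted in every library here, at 13.5 to 26.2 TPM, and the reason was not tested. VIM was at 4629 to 19464 TPM and NES at 5.21 to 27.6 TPM, whereas SOX2 did not exceed 4.03 TPM. PTPRC and PECAM1, which mark leukocytes and endothelium, did not exceed 0.22 TPM, and ALB of the liver did not exceed 0.74 TPM.

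The starts of the member genes carry the sequence by which the family is known. RefSeq promoter entries on GRCh38.p14 were found for 60 of the 78 members. Of these, 43 (71.7%, 95% Wilson interval 59.2 to 81.5) began with a C followed by at least 4 pyrimidines at an annotated start, against 5.14% of the 27305 genes of the same table. A run of this kind within 5 bases of the start was present in 83.3% of members and 25.2% of all genes. Each sequence below covers 15 bases before and 15 bases from the annotated start, with the pyrimidine run at the start in capitals. RPS12, RPL12 and RPS18 are shown because they differed most between the cell lines, and RPLP0, RPS6, RPS24, RPS27 and RPL7A because their values are described below. RPS15, RPL3 and RPS27L are shown because the annotated start has no such run.
RPS12 (chr6:132814554-132814583, + strand): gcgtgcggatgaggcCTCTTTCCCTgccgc
RPL12 (chr9:127451392-127451421, - strand): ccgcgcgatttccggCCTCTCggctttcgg
RPS18 (chr6:33272060-33272089, + strand): cgcgtcacttccgctCTCTCTTCCacagga
RPLP0 (chr12:120201097-120201126, - strand): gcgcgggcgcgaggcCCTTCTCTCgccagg
RPS6 (chr9:19380222-19380251, - strand): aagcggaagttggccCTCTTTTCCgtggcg
RPS24 (chr10:78033848-78033877, + strand): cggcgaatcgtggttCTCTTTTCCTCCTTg
RPS27 (chr1:153990747-153990776, + strand): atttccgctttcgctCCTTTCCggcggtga
RPL7A (chr9:133348203-133348232, + strand): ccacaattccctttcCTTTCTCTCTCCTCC
RPS15 (chr19:1438381-1438410, + strand): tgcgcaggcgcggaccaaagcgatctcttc
RPL3 (chr22:39319609-39319638, - strand): gtaaggccgaccggcctctaccggcgggat
RPS27L (chr15:63157463-63157492, - strand): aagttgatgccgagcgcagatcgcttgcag

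The pyrimidine run was 5 to 15 bases long with a median of 8, and the 15 bases examined limit the longest, such as that of RPL7A. Within the window of 250 bases before to 50 after the start, on either strand, CCGGAAG, the core of ETS and GABP sites, was present in 35% of members and 12.2% of all genes. AAGATGGC, a YY1-type core, was present in 10% and 3.52%. The E-box CACGTG was present in 6.67% and 8.77%, TATAAA in 10% and 14%, and GGGCGG in 56.7% and 48.3%. After the pyrimidine start, CCGGAAG had the widest gap between members and all genes. A match describes the letters only.

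**Figure D1:**
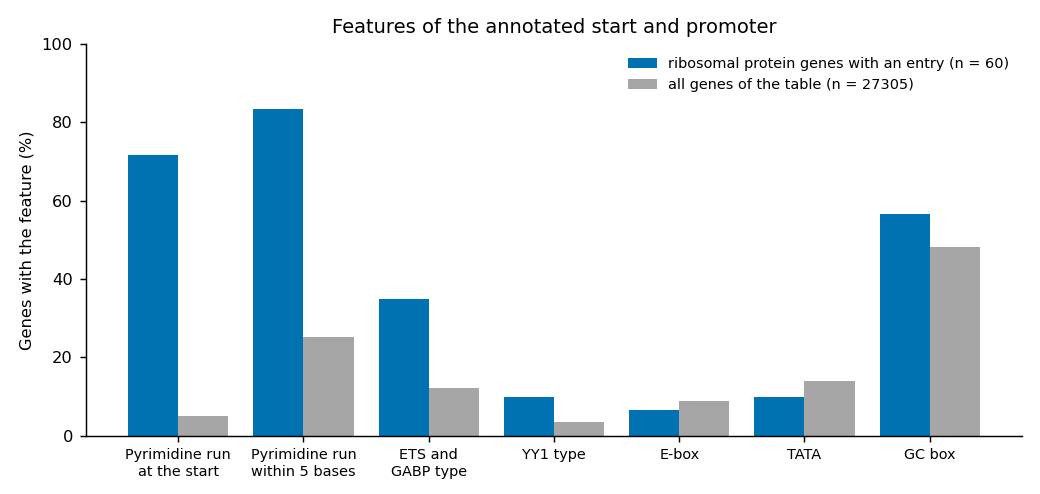
Share of genes (vertical axis, percent) with each feature of the annotated start or promoter, for the 60 member genes with an entry (blue) and all 27305 genes of the table (gray). The pyrimidine run at the start shows the widest gap, 71.7% against 5.14%.

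All 73 genes were transcribed in every library, at no less than 29.9 TPM, and 71 of them were at 100 TPM or more in each. In CHLA 02 the 73 genes ranged from 82.3 to 3792 TPM with a median of 1213 TPM, while the median of all 14827 genes tested, those at a mean of 1 TPM or more, was 24.1 TPM. Their median was 1213 TPM in CHLA 02, 1401 and 1266 TPM in the CHLA 06 replicates, 736 and 668 TPM in the CHLA 04 replicates, and 811 TPM in CHLA 05. CHLA 02 and CHLA 06 were thus higher at the median than CHLA 04 and CHLA 05, with no overlap of libraries. Of the 73 genes, 67 were at or above the 95 percentile in each library, ranked over the genes with a TPM above 0 in that library. Levels spread similarly within the libraries, with an SD over genes of 1.07 to 1.2 on the log2 scale.

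**Figure D2:**
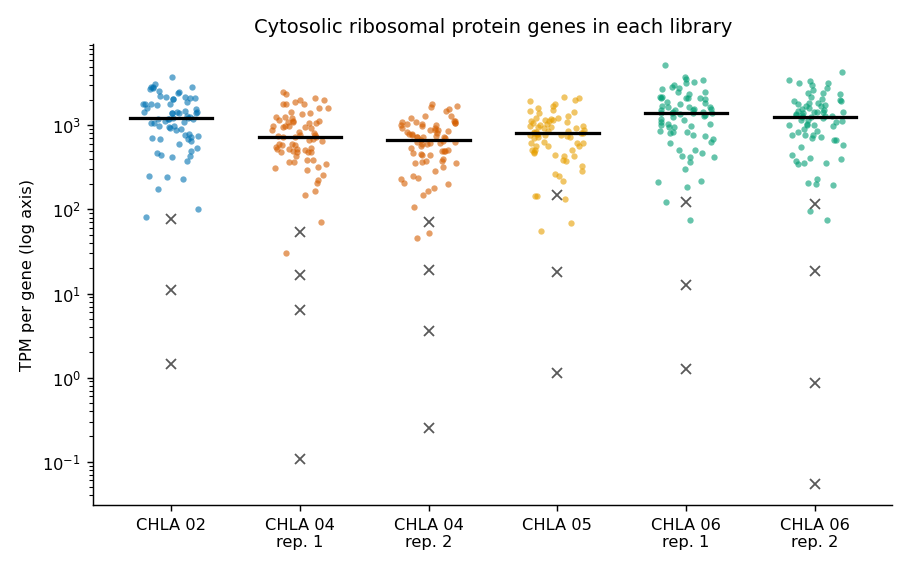
TPM per gene on a log axis (vertical) in each of the 6 libraries (horizontal). Each point is 1 of 73 genes colored by cell line, black bars are medians (1213, 736, 668, 811, 1401 and 1266 TPM from left to right), and gray crosses are the 4 paralogs and the chromosome 7 listing of RPL41 where their TPM is above 0.

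The most abundant members by mean TPM over the cell lines were RPS2, RPS3A, RPS12, RPS24, RPLP0 and RPS18. RPS2, a protein at the mRNA entry site (GRCh38 chr16:1962052-1964860, - strand, ENSG00000140988), was at 2864 TPM in CHLA 02, 3776 and 3452 TPM in the CHLA 06 replicates, 2494 and 1815 TPM in the CHLA 04 replicates, and 2090 TPM in CHLA 05. RPS3A, on the platform near the mRNA exit, was at 3072, 3595, 3355, 2010, 1632 and 2022 TPM. Both were highest in the CHLA 06 libraries and lower in every CHLA 04 and CHLA 05 library than in CHLA 02. RPS2 was the most abundant member in both CHLA 04 libraries, RPS24 in CHLA 05, and RPS12 in CHLA 02 and both CHLA 06 libraries.

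At the other end, apart from the paralogs, RPL9 was at 82.3, 74.6, 74.8, 29.9, 45.8 and 54.8 TPM and RPL37, a zinc-binding protein, at 103, 123, 96, 71.1, 53 and 68.2 TPM. The low levels are uncertain. Ribosomal protein genes have many near-identical processed copies, and reads could be split between them. TPM also depends on transcript length, and the 2 genes differ in this. RPL37 had 4462 reads in CHLA 02, and its most abundant transcript is 7686 bases long. RPL9 had 589 reads in CHLA 02, and its most abundant transcript has 1028 bases. The median length over the 73 genes was 881 bases. The part of copies and of length in these levels was not tested. RPL41, the shortest of the proteins, was at 1876, 2132, 1562, 1366, 1094 and 1713 TPM for the listing on chromosome 12. Its listing on chromosome 7 was at 1.47, 1.27, 0.863, 6.39, 3.56 and 1.13 TPM from 3 to 11 reads, and was set apart after its values were seen.

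Large and small subunit genes had similar medians when TPM was summed over the transcripts of a gene. The median of the small subunit genes minus that of the large subunit genes was -0.02 on the log2 scale in CHLA 02, 0.04 and 0.01 in the CHLA 06 replicates, 0.05 and -0.15 in the CHLA 04 replicates, and 0.07 in CHLA 05. The CHLA 04 replicates lay farther from each other than the means of any pair of lines. With the most abundant transcript in place of the sum, the difference was 0.30 in CHLA 04, where it was -0.05 by the sum, and 0.47 in CHLA 05. Over the 73 genes, TPM had a Spearman correlation of 0.84 to 0.99 between pairs of libraries, a description over genes whose length and base composition are shared by the libraries. The lowest was between CHLA 02 and CHLA 04 replicate 1, and the highest between the CHLA 06 replicates.

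Summed over all members, ribosomal protein transcripts made up 98987 TPM in CHLA 02, 110298 and 99799 TPM in the CHLA 06 replicates, 64163 and 52074 TPM in the CHLA 04 replicates, and 62781 TPM in CHLA 05. As a share of all TPM this was 9.90%, 11%, 9.98%, 6.42%, 5.21% and 6.28%. The mean of the technical replicates was 105048 ± 7424 TPM (SD, n = 2) for CHLA 06 and 58118 ± 8548 TPM (SD, n = 2) for CHLA 04. CHLA 02 and CHLA 06 were therefore above CHLA 04 and CHLA 05 by more than the spread between technical replicates. CHLA 05 lay between the CHLA 04 replicates, and CHLA 02 lay close below the lower CHLA 06 replicate. In reads, the members took 3.76%, 4.14%, 3.78%, 2.46%, 1.90% and 2.31%. In such bulk samples, fewer cells of a type and less RNA per cell cannot be told apart.

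The 13 protein genes of the mitochondrial genome varied in a similar order, at 84393 TPM in CHLA 02, 69204 and 86730 TPM in the CHLA 06 replicates, 18318 and 32662 TPM in the CHLA 04 replicates, and 47812 TPM in CHLA 05. VIM, the vimentin gene, was at 13742, 19464, 14708, 4629, 4990 and 8430 TPM. TPM is a share of a fixed total, and the part of these genes in the result was not tested. With TPM rescaled to chromosomes 1 to 22 and X and transcripts of at least 200 bases, which leaves the mitochondrial genome out, the summed member TPM was 108152 for CHLA 02 and 113888 for CHLA 06, but 59638 for CHLA 04 and 65977 for CHLA 05. The order of the cell lines was the same under this scaling.

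**Figure D3:**
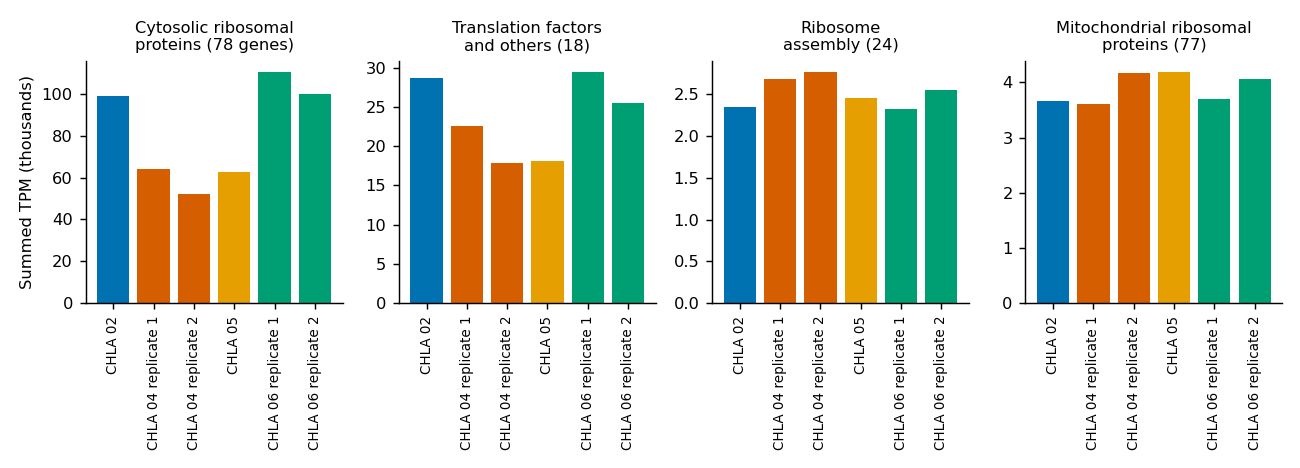
Summed TPM divided by 1000 (vertical axes, a scale of its own in each panel) per library (horizontal) for 4 gene lists, colored by cell line. The cytosolic ribosomal proteins range from 52074 to 110298 TPM, while ribosome assembly genes stay between 2320 and 2760 TPM and mitochondrial ribosomal proteins between 3608 and 4181 TPM.

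Which genes made up the difference between lines was asked for each of the 6 pairs of lines. Log2 ratios are of TPM + 1, averaged over technical replicates, and a gene was called when it differed by at least 2-fold and the libraries of the lines did not overlap. This rule was applied to the 14827 genes tested, which include 76 members, all but RPL3L and RPL10L. The pairs share cell lines and so are not independent, and in the pair of CHLA 02 and CHLA 05 each side is a single library, so that any difference counts as no overlap.

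In CHLA 04 relative to CHLA 02, the median member was at -0.70 on the log2 scale (1.63-fold lower), with all genes tested at a median of 0.13. Relative to all genes, the members stood at -0.84. Of the 73 genes, 68 were lower in both CHLA 04 libraries than in CHLA 02, a count not made over all genes. By the mean ratio, 72 of the 76 members were below 0, against 6276 of the 14827 genes tested. At 2-fold, 19 of 76 members were lower, 25% against 11.1% of all genes tested, and 1 was higher, against 10.5%. At 1.5-fold, 51 members were lower (67.1% against 18.3%) and 2 were higher, with 25% of all genes higher. The member called higher was the chromosome 7 listing of RPL41, which rests on 3 to 11 reads per library.

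In CHLA 05 relative to CHLA 02, the median member was at -0.59 (1.5-fold lower) and all genes tested were at 0.09. In the single libraries, 72 of the 73 genes were lower in CHLA 05, against 6509 of the 14827 genes tested. At 2-fold, 7 members were lower (9.21% against 11.6% of all genes tested) and 0 were higher (against 12.7%). At 1.5-fold, 38 were lower (50% against 18.9%) and 2 were higher (against 23.7%). The share past 2-fold was therefore near that of all genes, and the members differed from all genes in the number with moderate differences in 1 direction.

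In CHLA 06 relative to CHLA 04, the median member was at 0.80 (1.74-fold higher), with all genes at -0.21, so that the members stood 1.01 above all genes. Of the 73 genes, 64 were higher in both CHLA 06 libraries than in both CHLA 04 libraries, a count not made over all genes. By the mean ratio, 72 of the 76 members were above 0, against 6084 of the 14827 genes tested. At 2-fold, 19 members were higher (25% against 14.8% of all genes tested) and 1, the chromosome 7 listing of RPL41, was lower (against 20.9%). At 1.5-fold, 54 were higher (71.1% against 21.8%) and 1 was lower (against 33.2%). Without CHLA 04 replicate 1, 33 members in place of 20 were past 2-fold in either direction, and the share over all genes was not computed for this setting.

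In CHLA 06 relative to CHLA 05, the median member was at 0.66 (1.58-fold higher) and all genes were at -0.20. Of the 73 genes, 66 were higher in both CHLA 06 libraries, a count not made over all genes. By the mean ratio, 70 of the 76 members were above 0, against 5837 of the 14827 genes tested. At 2-fold, 13 members were higher (17.1% against 11.5% of all genes) and 0 were lower (against 19.5%). At 1.5-fold, 40 were higher (52.6% against 17.9%) and 0 were lower (against 31.1%). Without CHLA 06 replicate 1, 8 members in place of 13 were past 2-fold, again with no share over all genes computed.

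The other pairs differed little. In CHLA 06 relative to CHLA 02 the median member was at 0.03 (all genes -0.05), and 0 members were past 2-fold in either direction, against 2.8% of all genes higher and 10.3% lower. At 1.5-fold, only RPS27L was higher (against 8.88%) and 0 were lower (against 17.7%). In CHLA 05 relative to CHLA 04 the median was 0.14 (all genes 0.00), with RPS27 and RPS27L higher past 2-fold (2 of 76, against 11.9%) and the chromosome 7 listing of RPL41 lower (against 8.86%). At 1.5-fold, 7 were higher (against 21%) and 2 were lower (against 17.6%). Between the highest and the lowest line of each gene, 29 of 76 members were past 2-fold, 38.2% against 49.5% of all genes tested.

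**Figure D4:**
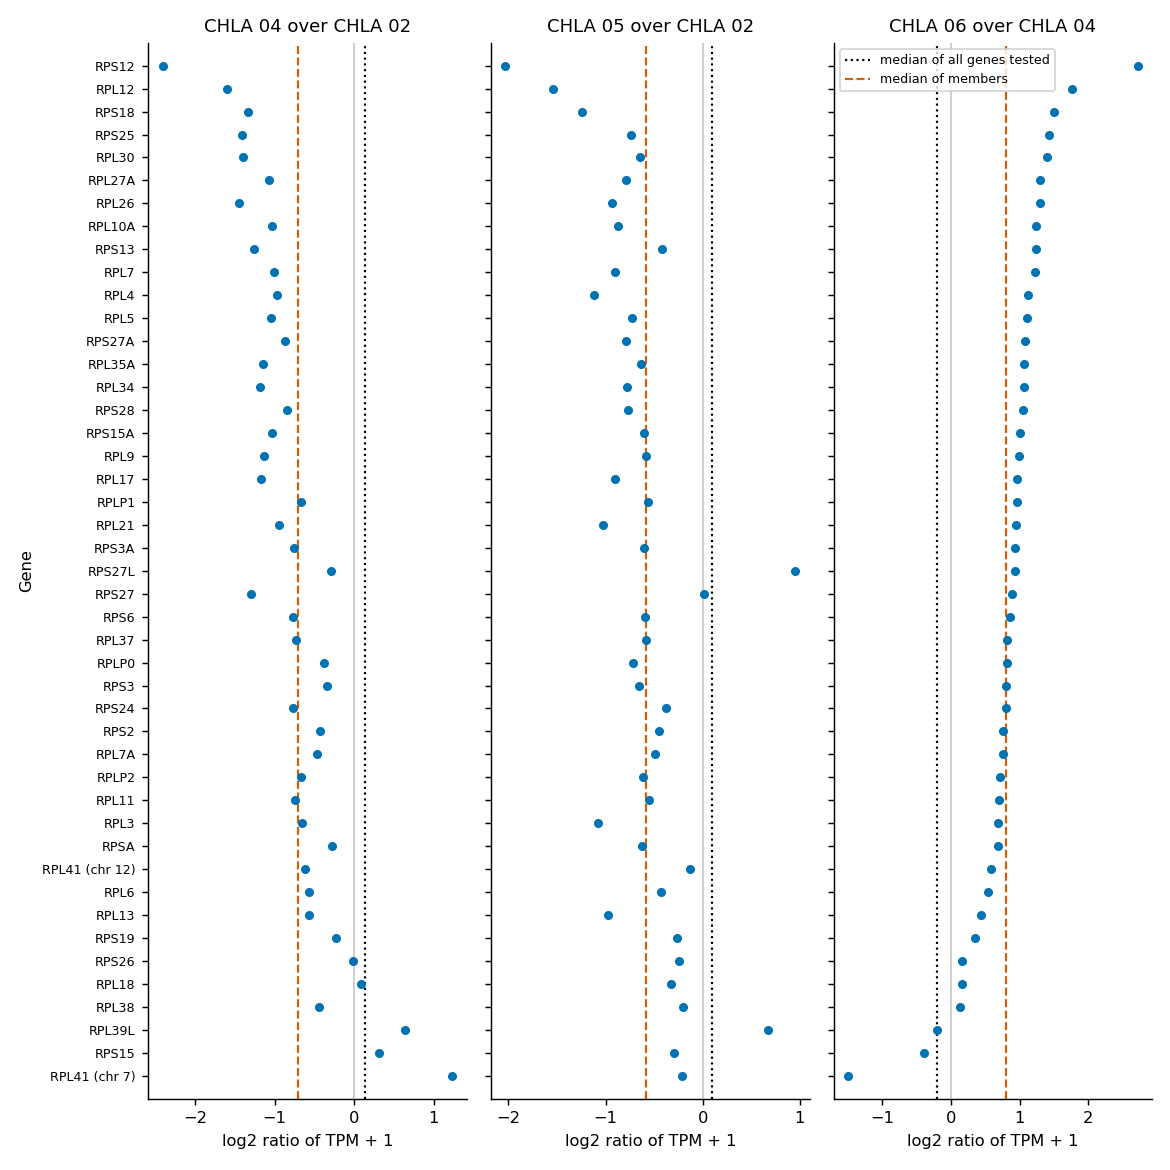
Log2 ratio of TPM + 1 (horizontal) for 45 of the 76 members tested, those named in the text (rows, ordered by CHLA 06 over CHLA 04) in 3 pairs of cell lines. Dashed orange lines are the medians of all 76 members (-0.70, -0.59 and 0.80) and dotted black lines those of all genes tested (0.13, 0.09 and -0.21), and RPS12 stands farthest out in each panel.

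The line with the highest mean was CHLA 06 for 42 of the 73 genes, CHLA 02 for 29, and CHLA 04 and CHLA 05 for 1 each. The lowest was CHLA 04 for 51 genes and CHLA 05 for 22. These tallies were not made over all genes tested. The single genes highest in CHLA 04 and CHLA 05 were RPS15 and RPS27.

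RPS12, a protein of the small subunit head (chr6:132814441-132817564, + strand, ENSG00000112306), differed most between lines. It was at 3792 TPM in CHLA 02, 5224 and 4254 TPM in the CHLA 06 replicates, 677 and 752 TPM in the CHLA 04 replicates, and 927 TPM in CHLA 05. All libraries of CHLA 02 and CHLA 06 were above all libraries of CHLA 04 and CHLA 05. The log2 ratio was -2.41 for CHLA 04 over CHLA 02, -2.03 for CHLA 05 over CHLA 02, 2.72 for CHLA 06 over CHLA 04 and 2.35 for CHLA 06 over CHLA 05. With the median of the members subtracted, RPS12 stood at 1.30 in CHLA 06 and 0.94 in CHLA 02, but at -0.97 in CHLA 05 and -1.27 in CHLA 04, each relative to the mean of the other lines.

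RPL12, at the base of the large subunit stalk (chr9:127447674-127451405, - strand, ENSG00000197958), followed at 2825 TPM in CHLA 02, 3267 and 3032 TPM in the CHLA 06 replicates, 974 and 890 TPM in the CHLA 04 replicates, and 972 TPM in CHLA 05. RPS18, a small subunit head protein, was at 2816, 3205, 3164, 1207, 1039 and 1186 TPM. RPS12, RPL12 and RPS18 were each past 2-fold in all of the 4 pairs that set CHLA 02 or CHLA 06 against CHLA 04 or CHLA 05. Their CHLA 02 and CHLA 06 libraries did not overlap those of CHLA 04 and CHLA 05.

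Some genes were lower in CHLA 04 than in CHLA 05. RPS25, a small subunit protein needed for initiation at some viral RNAs, was at 959 TPM in CHLA 02, 1046 and 912 TPM in the CHLA 06 replicates, 346 and 378 TPM in the CHLA 04 replicates, and 575 TPM in CHLA 05. RPL30, a large subunit protein at a bridge between the subunits, was at 1770, 1815, 1708, 580, 776 and 1130 TPM, and RPS13 of the small subunit at 1419, 1426, 1355, 524, 668 and 1058 TPM. For RPS25, RPL30 and RPS13 the CHLA 05 value lay above both CHLA 04 libraries and below CHLA 02 and CHLA 06.

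The same placing of CHLA 05 held for RPL26, which binds near the exit of the nascent chain and regulates p53 mRNA, at 2715, 2501, 2379, 988, 1006 and 1424 TPM. Of the 19 members past 2-fold below CHLA 02 in CHLA 04, 15 were not past 2-fold in CHLA 05, and these also include RPL5, RPL7, RPL9, RPL10A, RPL17, RPL27A, RPL34, RPL35A, RPS15A and RPS27. Some lay near the cutoff in both lines, such as RPL7 at -1.01 in CHLA 04 and -0.91 in CHLA 05. Whether the ratios of CHLA 04 and CHLA 05 were unequal was not tested, and the matching share over all genes was not computed.

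Past 2-fold in CHLA 05 but not in CHLA 04 relative to CHLA 02 were RPL3, RPL4 and RPL21. For RPL4 and RPL21 this is a narrow crossing of the cutoff. Their log2 ratios were -0.97 and -0.95 in CHLA 04, and -1.12 and -1.03 in CHLA 05. RPL4, which lines the exit tunnel, was at 2440, 2779, 2638, 1431, 1079 and 1124 TPM, and RPL21 at 2036, 2122, 1954, 1130, 981 and 1000 TPM. RPL3, close to the peptidyl transferase center, was at 2577 TPM in CHLA 02, 2885 and 2401 TPM in the CHLA 06 replicates, 2347 and 1131 TPM in the CHLA 04 replicates, and 1218 TPM in CHLA 05. The CHLA 04 replicates of RPL3 differed by 1.05 on the log2 scale and spanned most of the range between CHLA 05 and CHLA 02. RPL3 was the single one of the 73 genes whose CHLA 04 replicates were past 2-fold, and 0 were in CHLA 06.

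Further members past 2-fold between CHLA 06 and CHLA 04 or CHLA 05 were RPS3, RPL7, RPL10A and RPS28. RPS3, at the mRNA entry and known for an extraribosomal part in NF-kappaB signaling, was at 969, 1421, 1252, 917, 635 and 615 TPM. RPL7 was at 1779, 2171, 1960, 995, 778 and 948 TPM, RPL10A at 1387, 1694, 1512, 730, 627 and 759 TPM and RPS28 at 228, 300, 229, 149, 107 and 133 TPM. In RPS3, RPL7, RPL10A and RPS28 the lowest of the CHLA 02 and CHLA 06 values was above the highest of the CHLA 04 and CHLA 05 values.

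RPS27, a zinc-binding small subunit protein (chr1:153990759-153992150, + strand), departed from the common order. It was at 1775 TPM in CHLA 02, 1540 and 1154 TPM in the CHLA 06 replicates, 717 and 728 TPM in the CHLA 04 replicates, and 1787 TPM in CHLA 05. CHLA 05 was thus level with CHLA 02 for RPS27 and 1.31 above CHLA 04 on the log2 scale. Its paralog RPS27L, a target of p53, was at 76.1, 124, 115, 54.4, 71.1 and 148 TPM, and was likewise highest in CHLA 05 and lowest in CHLA 04.

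RPS15, whose tail reaches the decoding center, also stood apart, at 1071 TPM in CHLA 02, 1026 and 998 TPM in the CHLA 06 replicates, 1622 and 1083 TPM in the CHLA 04 replicates, and 875 TPM in CHLA 05. Outside the chromosome 7 listing of RPL41 it had the highest level in CHLA 04 relative to the other lines (1.0 on the log2 scale, with the median of members subtracted). The CHLA 04 replicates of RPS15 differed by more than CHLA 04 replicate 2 did from CHLA 02. RPS26, at the mRNA exit, was at 173, 184, 199, 165, 178 and 146 TPM, highest in the CHLA 06 libraries and lowest in CHLA 05, while CHLA 02 lay between the CHLA 04 replicates. RPL38, needed in mice for the translation of Hox mRNAs, was low in CHLA 06 relative to the other members (-0.58), at 253, 213, 196, 209, 166 and 220 TPM.

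The stalk that recruits translation factors consists of RPLP0, RPLP1 and RPLP2. RPLP0 was at 2468 TPM in CHLA 02, 3431 and 3211 TPM in the CHLA 06 replicates, 2097 and 1703 TPM in the CHLA 04 replicates, and 1502 TPM in CHLA 05. RPLP1 was at 654, 831, 777, 481, 353 and 442 TPM and RPLP2 at 876, 955, 860, 593, 512 and 573 TPM. All 3 were lower in each CHLA 04 and CHLA 05 library than in CHLA 02, and RPLP0 was past 2-fold between CHLA 06 and CHLA 05.

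RPL5 and RPL11, which bind the smallest rRNA of the large subunit, followed the family. RPL5 was at 1433 TPM in CHLA 02, 1571 and 1417 TPM in the CHLA 06 replicates, 736 and 654 TPM in the CHLA 04 replicates, and 865 TPM in CHLA 05. RPL11 was at 1399, 1383, 1333, 948, 735 and 953 TPM. RPL5 was past 2-fold between CHLA 06 and CHLA 04 (log2 1.10) and RPL11 was not (0.70).

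RPS6, the substrate of S6 kinase, was at 1223 TPM in CHLA 02, 1310 and 1301 TPM in the CHLA 06 replicates, 837 and 615 TPM in the CHLA 04 replicates, and 811 TPM in CHLA 05. RPS19, mutated in Diamond-Blackfan anemia, was at 685, 825, 677, 741, 463 and 568 TPM. RPS6 separated CHLA 02 and CHLA 06 from CHLA 04 and CHLA 05 without overlap, whereas the CHLA 04 replicates of RPS19 lay on both sides of CHLA 02. RPSA, the laminin receptor precursor, was at 1176, 1633, 1480, 1062, 888 and 760 TPM, and RPS27A, made as a fusion with ubiquitin, at 1400, 1650, 1589, 814, 715 and 812 TPM.

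The tissue-restricted paralogs were low or at 0. RPL10L, known from the testis, had 0 reads in every library, which allows up to 0.432 to 0.874 TPM by a limit of 3 reads that covers counting error only. RPL3L, known from striated muscle, had 1 read in each CHLA 04 library and in CHLA 06 replicate 2, and 0 reads elsewhere. RPL39L, enriched in testis and in some tumors, was at 10.9, 12.5, 18.5, 16.5, 18.9 and 18 TPM. The RPL39L values of the CHLA 06 replicates spanned most of the range over the lines.

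Technical replicates set the precision of these values. In CHLA 04, replicate 1 exceeded replicate 2 for 60 of the 73 genes, by a median of 0.30 on the log2 scale (1.23-fold), with all genes tested at 0.03. In CHLA 06 the median was 0.13, with all genes at -0.01, and 66 of 73 genes were higher in replicate 1. Across the 73 genes, the CHLA 04 replicate ratio had a Spearman correlation of 0.24 with the GC content and 0.50 with the length of the most abundant transcript, and over 10691 genes at 10 TPM or more these were 0.51 and -0.01. For CHLA 04 over CHLA 02 they were 0.28 and 0.31 (0.37 and -0.01 over all genes), and for CHLA 06 over CHLA 04 they were -0.20 and -0.28 (-0.26 and -0.03). The part of base composition and length in the ratios was not tested.

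Members with and without a pyrimidine run at the start had overlapping ratios. Among the 73 genes, 43 had a run at an annotated start and 15 with an entry had none. In CHLA 04 over CHLA 02 the median was -0.70 for genes with the run and -0.85 without, and in CHLA 06 over CHLA 04 it was 0.76 and 0.80. In CHLA 05 over CHLA 02 it was -0.61 and -0.59, and in CHLA 06 over CHLA 05 it was 0.66 and 0.44. Each of these medians lay within the range of the other set. Such ranges are wide, for example -2.41 to 0.08 with the run in CHLA 04 over CHLA 02. The overlap therefore cannot tell whether the sets differ, which was not tested. Some genes counted as having no run have one within 5 bases of the start.

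Related genes were compared as lists. A list of 18 genes, of translation factors and of other genes such as TPT1, NPM1, NAP1L1 and HNRNPA1, many of which are known to carry TOP starts, summed to 28748 TPM in CHLA 02, 29412 and 25488 TPM in the CHLA 06 replicates, 22633 and 17844 TPM in the CHLA 04 replicates, and 18156 TPM in CHLA 05. In CHLA 06 over CHLA 04, 3 of 18 were higher past 2-fold, near the 14.8% of all genes tested, and 0 were lower (against 20.9%), with a list median of 0.48. The 3 were EIF3E, TPT1, a growth-associated protein, and NPM1, a nucleolar chaperone. EIF3E of the initiation factor eIF3 was at 715, 803, 723, 274, 282 and 349 TPM, whereas EEF1D of the elongation factor eEF1 was at 274, 396, 333, 581, 417 and 292 TPM. EIF3E separated CHLA 02 and CHLA 06 from CHLA 04 and CHLA 05 as RPS12 did, and EEF1D did not.

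Ribosome assembly genes showed no such separation at 2-fold. Of 24 genes, 0 were past 2-fold in either direction in CHLA 06 over CHLA 04 (against 14.8% of all genes higher and 20.9% lower), and the list median was -0.10, beside 0.80 for the members and -0.21 for all genes. Fibrillarin (FBL), the rRNA methyltransferase, was at 233, 225, 224, 434, 302 and 211 TPM. Among 77 mitochondrial ribosomal protein genes, 4 were higher (against 14.8% of all genes) and 0 lower (against 20.9%) in CHLA 06 over CHLA 04, with a list median of -0.01.

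Of 10 ribosomal protein genes that the rule leaves out, such as those on chromosome X, 3 were higher (against 14.8%) and 0 lower (against 20.9%) past 2-fold in CHLA 06 over CHLA 04, with a median of 0.75. RPS4X was at 1461, 1596, 1570, 582, 500 and 708 TPM and RPL10 at 1777, 1857, 1521, 1091, 845 and 1180 TPM. RPL36A was at 12.6, 68.9, 89.5, 7.86, 7.12 and 6.09 TPM and was high in CHLA 06 alone. Of 89 ribosomal protein pseudogenes in the files, 24 had a read, and they summed to 57.6 to 111 TPM per library, or 0.0767% to 0.15% of the summed member TPM. In reads they took 0.153% to 0.251% of the reads of the members.

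The transcripts within a gene gave another order of the libraries. The members have 729 annotated transcripts, of which 425 were at a mean of 10 TPM or more. Across these 425, transcript shares of gene TPM had a Spearman correlation of 0.92 between CHLA 02 and CHLA 05, and of 0.83 to 0.95 among the libraries of CHLA 04 and CHLA 06. Between CHLA 02 or CHLA 05 and the libraries of CHLA 04 and CHLA 06 it was 0.74 to 0.79. Shares were thus most alike within the lines sequenced once and within the lines sequenced as technical replicates, whereas gene TPM of different lines was most alike between CHLA 02 and CHLA 06. This pattern was noticed in the data, and how the libraries were run and the identity of the lines cannot be told apart.

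In 19 member transcripts, from 10 genes, the share was at least 2-fold higher in each of the 4 libraries of CHLA 04 and CHLA 06 than in both CHLA 02 and CHLA 05, after 0.1 percentage points were added to each share. These were 4.47% of the 425, against 1.15% of 15129 transcripts of all genes. In 22 transcripts, from 11 genes, the share was lower (5.18% against 0.377%). Without CHLA 04 replicate 1 there were 40 lower, and the share over transcripts of all genes was not computed for this setting.

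Transcript ENST00000530225 of RPS2 held, as a share of the TPM of its gene, 3.68% in CHLA 02, 35.8% and 37.6% in the CHLA 06 replicates, 23.1% and 32% in the CHLA 04 replicates, and 3.67% in CHLA 05. ENST00000315731 of RPL7A, a large subunit protein, held 4.04%, 44.2%, 39.3%, 31.2%, 38.3% and 3.54%. Shares in CHLA 02 and CHLA 05 were low and close together for both transcripts, and all libraries of CHLA 04 and CHLA 06 lay above them. Transcripts of RPL13 and RPL18 behaved likewise, ENST00000562879 of RPL13 with 0.920%, 36.4%, 23.9%, 9.48%, 33% and 1% and ENST00000550645 of RPL18 with 2.58%, 28.5%, 30.7%, 17.5%, 27.2% and 3.23%.

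In the other direction, ENST00000553205 of RPL6, with 2 exons at chr12:112405190-112406344, held 11.5% in CHLA 02, 0.747% and 0.431% in the CHLA 06 replicates, 2.60% and 1.92% in the CHLA 04 replicates, and 10.2% in CHLA 05. ENST00000548590 of RPS26 held 38.4%, 4.94%, 3.18%, 8.80%, 6.27% and 31.3%. For these the CHLA 02 and CHLA 05 shares were above all libraries of CHLA 04 and CHLA 06. Such transcripts overlap others of the same gene, so their shares depend on how the software assigned shared reads.

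RPS24 showed a split of its own. Its main transcript ENST00000360830 includes an exon of 22 bases at chr10:78040204-78040225 (GRCh38, + strand) before the last exon, which ENST00000372360 lacks. The exon is shown, all in capitals, because it tells the forms apart.
RPS24 exon: TGAGCTGGAGATTGGATCACAG

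The main form was at 2608 TPM in CHLA 02, 2543 and 2285 TPM in the CHLA 06 replicates, 1757 and 1514 TPM in the CHLA 04 replicates, and 2121 TPM in CHLA 05. The form without the exon, ENST00000372360, was at 150 TPM in CHLA 02, 346 and 394 TPM in the CHLA 06 replicates, 0.927 and 1.70 TPM in the CHLA 04 replicates, and 0.601 TPM in CHLA 05. It held 5.26% in CHLA 02, 11.4% and 14.1% in the CHLA 06 replicates, 0.0519% and 0.109% in the CHLA 04 replicates, and 0.0274% in CHLA 05, and rests on 2 to 6 reads per library in CHLA 04 and CHLA 05. ENST00000485708, which has this exon and a further one of 18 bases at chr10:78037965-78037982, was at 26.4, 48, 48.6, 0.435, 1.86 and 2.54 TPM. Both minor forms were thus higher in CHLA 02 and CHLA 06, the lines with more ribosomal protein RNA, and this is the order of the gene levels and not that of the shares of RPS2 or RPL7A.

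**Figure D5:**
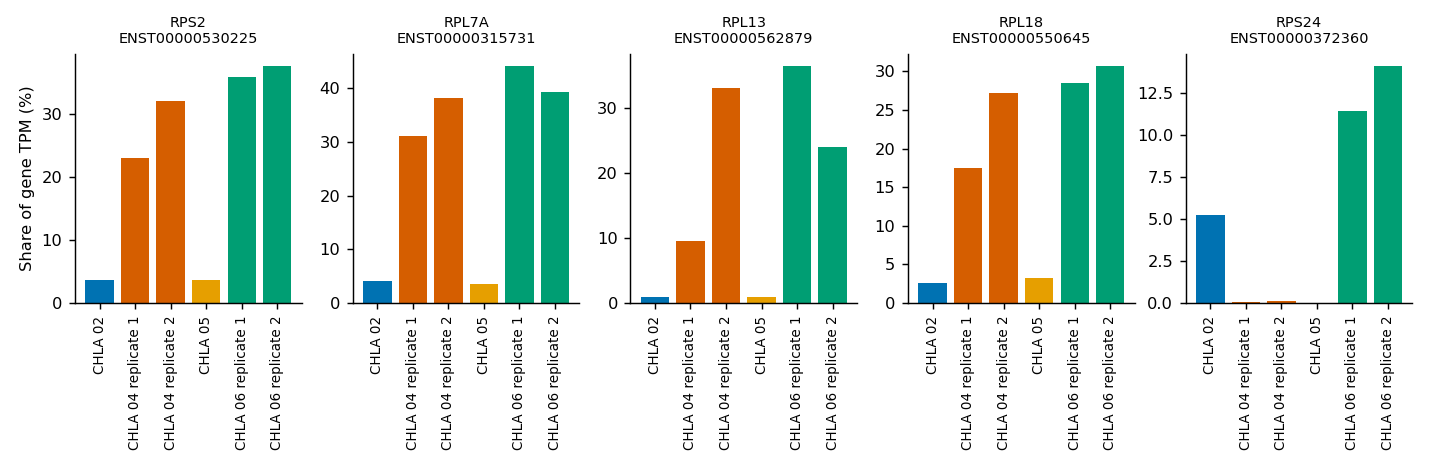
Share of gene TPM (vertical axes, percent, a scale of its own in each panel) held by 1 transcript of RPS2, RPL7A, RPL13, RPL18 and RPS24 in each library (horizontal), colored by cell line. In the 4 panels on the left the 4 libraries of CHLA 04 and CHLA 06 exceed CHLA 02 and CHLA 05, and in RPS24 CHLA 02 and CHLA 06 exceed CHLA 04 and CHLA 05.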

How the data were processed

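RNA of 4 cell lines was measured in 6 libraries, grouped by the cell line given in the labels. Per the paper and the labels, the authors used CASAVA 1.8.2, FastQC and Trimmomatic, mapped reads to GRCh38 in the CLCbio Genomics Workbench (RNA-Seq tool, default settings), and deposited TPM for 173113 Ensembl transcripts per library, without pooling technical replicates. How shared reads were assigned is not given in the sources used here. The 6 tables of LTR elements were not used.

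Here TPM was summed by gene identifier, and each value, multiplied by transcript length, was divided by what 1 read is worth to give reads (whole within 0.05). The counting steps were tested on simulated data. A gene counted as different at 2-fold on log2(TPM + 1) with no overlap of libraries, among genes at a mean of 1 TPM or more. Low genes change less on this scale. No test was made, and SDs cover technical replicates only. Starts and motifs came from RefSeq promoters (GRCh38.p14), and GC content from the GRCh38 genome, where 97.9% of 745 member introns had GT and AG ends. Named members are the 6 highest and 6 lowest by mean TPM, the 3 highest and lowest of each line relative to the members, those past 2-fold between highest and lowest line, and paralogs, stalk, RPSA, RPS27A, RPL5, RPL11, RPS6 and RPS19. RPS26, genes of other lists and the transcripts were named after their values were seen, and the RPL41 copy was set apart likewise. Values of some genes that the rule would name are not reported here. Members and lists were chosen with earlier results of these data known. Python 3.11.15, pandas 2.3.3 and matplotlib 3.10.9 were used.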

Additional observations from a re-analysis of the deposited data

How the results depend on the processing

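Medians of members kept their direction under all alternatives tried in the 4 pairs that set CHLA 02 or CHLA 06 against CHLA 04 or CHLA 05. Median-of-ratios size factors moved CHLA 06 over CHLA 04 to 0.97 (35 members past 2-fold) and CHLA 05 over CHLA 02 to 11 members. The most abundant transcript in place of the sum moved CHLA 04 over CHLA 02 to -0.88, and gave 32, 13, 6, 9, 34 and 22 members past 2-fold in CHLA 04 over CHLA 02, CHLA 05 over CHLA 02, CHLA 06 over CHLA 02, CHLA 05 over CHLA 04, CHLA 06 over CHLA 04 and CHLA 06 over CHLA 05, 46 between highest and lowest line, and a subunit difference of 0.30 in CHLA 04 and 0.47 in CHLA 05. At 1.5-fold the same pairs had 53, 40, 1, 9, 55 and 40. For the counts past 2-fold under size factors and the most abundant transcript, the share over all genes was not computed. Those counts therefore cannot be set against all genes. Rescaling without short transcripts and the mitochondrial genome gave 113888 TPM in CHLA 06. A run within 5 bases of the start was present in 83.3% of members. Transcripts at 50 TPM or more left 13 with a lower share. Alternatives without RPS12, and all those on transcript shares, were chosen after seeing the data. The cause of these differences was not tested, beyond their own construction.

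Without each technical replicate in turn, medians ranged from -0.89 to -0.56 (CHLA 04 over CHLA 02), -0.00 to 0.29 (CHLA 05 over CHLA 04), -0.03 to 0.11 (CHLA 06 over CHLA 02), 0.62 to 0.88 (CHLA 06 over CHLA 04) and 0.59 to 0.69 (CHLA 06 over CHLA 05). Counts past 2-fold ranged from 16 to 25, 4 to 4, 0 to 0, 18 to 33 and 8 to 17 in these pairs, and from 27 to 38 between highest and lowest line. Transcripts with a higher share numbered 19 to 22 and with a lower share 23 to 40. The matching counts over all genes or transcripts were not computed. Of 232 alternative values, 183 stayed within the technical spread or within 1.5 times and 0 called values changed direction. With 1 biological sample per line, the spread between cultures is unknown. No paired analysis was possible because no test between lines was made.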

Other observations

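Among 11 genes that control ribosomal protein synthesis, MYC and MYCN differed most between the lines. MYC, a transcription factor that raises ribosome production, was at 79.7 TPM in CHLA 02, 94.1 and 72.1 TPM in the CHLA 06 replicates, 0.612 and 0.937 TPM in the CHLA 04 replicates, and 1.44 TPM in CHLA 05. MYCN, its paralog, was at 26.3 TPM in CHLA 02, 0.0497 and 0.0900 TPM in the CHLA 06 replicates, 113 and 69.6 TPM in the CHLA 04 replicates, and 109 TPM in CHLA 05. MYC was higher in every library of CHLA 02 and CHLA 06, the lines with more ribosomal protein RNA, than in CHLA 04 and CHLA 05. MYCN was near 0 in CHLA 06 and intermediate in CHLA 02. Their part in the member levels was not tested. The TOP mRNA regulator LARP1 ranged from 206 to 267 TPM over the libraries. CNBP, which binds TOP mRNAs, was at 533, 389, 438, 257, 301 and 331 TPM, and was highest in CHLA 02. MDM2, to which free RPL5 and RPL11 bind, was at 195, 286, 305, 205, 246 and 368 TPM and was highest in CHLA 05. The lists without names follow the order CHLA 02, CHLA 06 replicates, CHLA 04 replicates, CHLA 05.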
